A study of Homo sapiens with 5 samples.

Results

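Cycling human progenitors are the dividing cells of human brain organoids, examined here before and after the organoids were grafted into the mouse brain. A human cell was counted as cycling when at least 1 unique molecular identifier (UMI, the tag that marks 1 captured RNA molecule) was found for 3 or more of 11 cell cycle genes, MKI67, TOP2A, CENPF, NUSAP1, TPX2, UBE2C, CDK1, BIRC5, RRM2, TYMS and CLSPN. This rule found 3159 of 34405 human cells, namely 1386 of 4900 in organoids before grafting (D0), 311 of 8277 and 506 of 5952 in grafts at 2 months (HIP_2MPT, then PFC_2MPT), and 457 of 6913 and 499 of 8363 in grafts at 4 months (HIP_4MPT, then PFC_4MPT). The rule reads the RNA itself, so the levels of these 11 genes and the contrast of cycling with other cells are descriptions and carry no test.

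The organoids came from H9, a human embryonic stem cell line labelled wild type, in a version whose AAVS1 locus carries the light-gated channel ChR2 fused to the fluorescent protein EYFP. D0 is the organoid at day 42 of culture, on the day of transplantation. Grafted brain organoids were taken from the prefrontal cortex (PFC) or the hippocampus (HIP) of immunodeficient mice (named SCID-Beige in the study's results and SCID in its methods) at 2 or 4 months post transplantation (MPT), and tissue with EYFP was dissected under a microscope, so all groups carry the same transgene and only grafts had a host. Each of the 5 conditions is 1 single-cell library of pooled organoids or grafts from 1 stem cell line. D0 was dissociated with TrypLE and grafts with Trypsin-EDTA, and the Cell Ranger release and the gene annotation used for counting differed as well. Grafts were also older than D0 by the months after transplantation. For these reasons culture against graft, age, enzyme, counting and library cannot be told apart in any comparison with D0. HIP and PFC libraries of 1 stage stood as its 2 libraries, so p-values between stages measure only the spread between these libraries, which also differ in graft site.

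Below, where graft values come in pairs, the first is HIP and the second PFC, and 4 graft values in a row are the pair of 2 MPT followed by that of 4 MPT. Depth differed between libraries. Cycling cells had a median of 15746 UMIs in D0, 1867 and 4075.5 at 2 MPT and 5152 and 3360 at 4 MPT, and the other human cells 8082 in D0, 1242 and 2293 at 2 MPT and 2695 and 1792 at 4 MPT. Cycling cells were therefore deeper than the rest in each library, and those of D0 were the deepest. The median share of mitochondrial UMIs in cycling cells was 3.57% in D0, 3.49% and 2.14% at 2 MPT and 2.75% and 5.50% at 4 MPT, highest in PFC_4MPT. No barcode of a cycling cell occurred in more than 1 library, although each pair of libraries shared 6 to 20 barcodes of human cells.

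A dividing cell copies its DNA in S phase and separates the copies in mitosis (M phase), after a gap called G2. In the developing cortex the dividing cells are radial glia, the neural stem cells that line the ventricle, and the intermediate progenitors they produce, which divide again before they become neurons. Later in development progenitors also give rise to glia, and those of the ventral forebrain to inhibitory neurons. Genes for DNA synthesis are switched on by E2F factors, while genes for mitosis are switched on later, through promoters that often hold CCAAT boxes and an element called CHR.

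As examples, 130-base stretches before a RefSeq start are printed for 4 of the 11 genes. They run 5′ to 3′ on the gene's strand, from RefSeq on GRCh38.p14. Where a gene had several windows, the stretch with most of the matches marked below was printed. The matches shown are thus partly set by that choice. MKI67 codes for the proliferation antigen Ki-67 and CDK1 for the kinase that drives entry into mitosis, while RRM2, a subunit of ribonucleotide reductase, and TYMS, thymidylate synthase, make the building blocks of DNA. Capitals mark CCAAT (or ATTGG on the other strand), TTTGAA (or TTCAAA), the core of the CHR, and TTCCCGC (or GCGGGAA), a common E2F core. The stretches are chr10:128126424-128126553 (minus strand) for MKI67, chr10:60778348-60778477 (plus) for CDK1, chr2:10122609-10122738 (plus) for RRM2 and chr18:657523-657652 (plus) for TYMS. GENCODE places the first base of CDK1 at 60778331 and of RRM2 at 10120698, so both of these stretches lie inside the gene bounds of that annotation.
MKI67: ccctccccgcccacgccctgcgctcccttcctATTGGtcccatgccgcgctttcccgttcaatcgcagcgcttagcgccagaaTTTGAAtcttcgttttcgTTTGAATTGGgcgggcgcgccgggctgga
CDK1: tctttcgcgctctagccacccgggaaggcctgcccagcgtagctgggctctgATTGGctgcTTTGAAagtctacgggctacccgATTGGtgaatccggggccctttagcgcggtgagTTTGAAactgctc
RRM2: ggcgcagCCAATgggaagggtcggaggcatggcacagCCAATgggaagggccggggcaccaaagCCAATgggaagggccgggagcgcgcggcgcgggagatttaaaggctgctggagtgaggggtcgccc
TYMS: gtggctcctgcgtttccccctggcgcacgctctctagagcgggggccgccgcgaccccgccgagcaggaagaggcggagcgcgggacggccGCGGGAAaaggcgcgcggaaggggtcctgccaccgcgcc
In MKI67 the second TTTGAA and the second ATTGG share 1 base. MKI67 and CDK1 each hold 2 CCAAT and 2 TTTGAA matches and no TTCCCGC, RRM2 holds 3 CCAAT matches, and TYMS holds 1 TTCCCGC match.

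The same letters were counted over windows from 250 bases before to 50 bases after each start, on both strands. A gene was counted when any of its windows held a match. There were 43 windows for 28 S phase genes, 50 for 42 genes of G2 and M phase and 35116 for all 27305 genes. Of the 11 genes 8 had a window, and 5 of these, all genes of G2 or M phase, held TTTGAA, while 7 held CCAAT. In a list of 47 genes of G2 and M phase, 42 had a window and 27 of them (64.3%) held TTTGAA, against 5 of 28 (17.9%) in a list of 38 S phase genes and 18.2% of all 27305 genes. TTCCCGC went the other way, in 18 S phase genes (64.3%), 3 genes of G2 and M phase (7.14%) and 7.82% of all genes. CCAAT was in 71.4% and 73.8% of the S phase and the G2 and M phase genes, against 39.7% of all. A match describes the letters and is not a measured site of binding.

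The share of cycling cells was highest in D0. With all UMIs it was 28.3% in D0 (95% Clopper-Pearson interval 27.03 to 29.6), 3.76% (3.36 to 4.19) and 8.50% (7.81 to 9.24) at 2 MPT, and 6.61% (6.04 to 7.22) and 5.97% (5.47 to 6.50) at 4 MPT. These intervals cover counting error only. D0 thus stood 4.56 times above the mean of the 4 grafts, but a deep cell passes a rule on detected genes more easily than a shallow one.

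To set the libraries side by side, each cell was thinned to 1000 UMIs and cells below that depth were left out, 282 of them in D0, 1635 and 233 at 2 MPT and 171 and 982 at 4 MPT. The share was then 8.99% in D0 (415 of 4618 cells), 3.09% (205 of 6642) and 5.26% (301 of 5719) at 2 MPT, and 3.59% (242 of 6742) and 3.97% (293 of 7381) at 4 MPT. At equal depth D0 remained above each graft, 2.26 times the graft mean. Thinned to 2000 UMIs the order did not hold, with 13.1% in D0, 16.0% and 9.73% at 2 MPT and 6.11% and 11.3% at 4 MPT, when 733 of the 8277 cells of HIP_2MPT were deep enough to enter. With 1 library of D0 the difference from grafts has no test.

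Between the graft stages the thinned share did not separate. Its mean was 4.17% ± 1.54 (SD, n = 2 libraries) at 2 MPT and 3.78% ± 0.269 (n = 2) at 4 MPT, and both 4 MPT libraries lay between HIP_2MPT and PFC_2MPT. An exact permutation test of 2 against 2 libraries cannot give a two-sided p under 0.333.

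**Figure D1:**
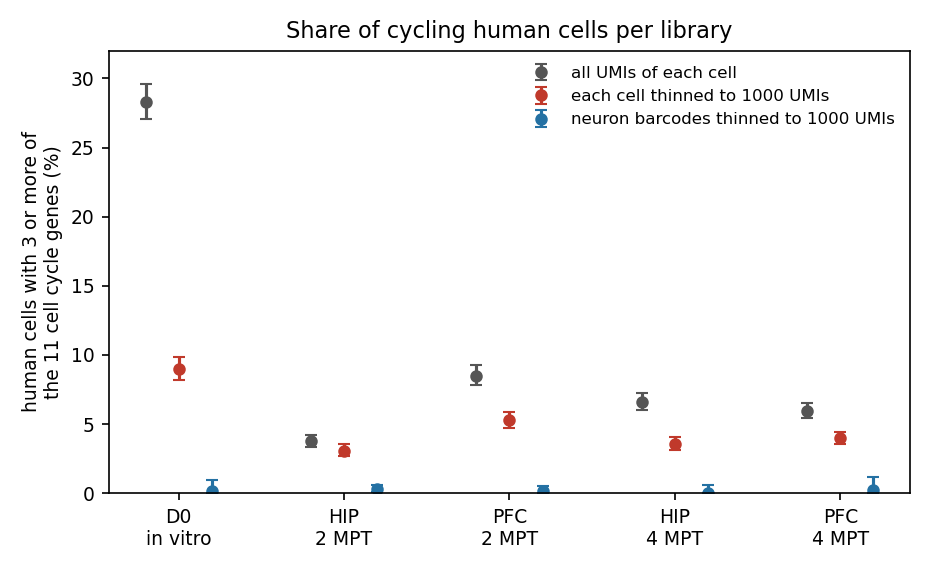
Share of human cells (%) with 3 or more of the 11 cell cycle genes, by library, with all UMIs (grey), with each cell thinned to 1000 UMIs (red), and for neuron barcodes thinned likewise (blue). Bars are 95% Clopper-Pearson intervals. D0 was at 28.3% with all UMIs and at 8.99% after thinning, above the thinned grafts, which lay between 3.09% and 5.26%.

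Cells that should not divide seldom met the rule. Barcodes with 4 or more neuron markers met it after thinning in 1 of 598 cells of D0 (0.167%), 7 of 2527 (0.277%) and 2 of 1311 (0.153%) at 2 MPT, and 0 of 605 (3 counts of the total allow up to 0.496%) and 1 of 487 (0.205%) at 4 MPT. Host barcodes, with under 20% human UMIs, met it in 0 of 916 and 0 of 772 at 2 MPT and 2 of 2071 and 2 of 1202 at 4 MPT. Both backgrounds were far below the 3.09% to 8.99% of human cells at 1000 UMIs. The median human depth of host barcodes was 54 to 241 UMIs, so that count is a weak check. No doublet caller was run.

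The 11 genes were present in the cycling cells of each library. Levels are CPM, the UMIs of a gene after the summed cycling cells of each library were scaled to the same total. MKI67 stood at 189 CPM in D0, 178 and 208 at 2 MPT and 196 and 142 at 4 MPT, against 0.843 to 3.22 CPM in the other human cells. TOP2A, the topoisomerase that untangles replicated chromosomes, stood at 541 CPM in D0, 1424 and 1023 at 2 MPT and 1188 and 854 at 4 MPT. UBE2C, a ubiquitin carrier needed to leave mitosis, stood at 605 CPM in D0, 891 and 728 at 2 MPT and 799 and 1254 at 4 MPT. For MKI67 D0 lay within the range of the grafts, and for TOP2A and UBE2C below it. RRM2 stood at 52.8 CPM in D0 and 178 to 254 in grafts, and TYMS at 187 in D0 and 202 to 363 in grafts.

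The sum of the 11 genes was 3027 CPM in D0 and 5217 to 5318 CPM in grafts, and depth entered this too. D0 cells that only just met the rule, with 3 genes detected, held MKI67 at 7.36 CPM and the chromatin protein HMGB2 at 108 CPM, beside 699 CPM of the neuronal gene STMN2. Graft cells with 3 genes detected held MKI67 at 26.6 to 121 CPM, HMGB2 at 355 to 983 CPM and STMN2 at 289 to 902 CPM. Cells just outside the rule, with 2 genes, held HMGB2 at 85.4 CPM in D0 and 190 to 569 CPM in grafts. When members were instead chosen at 1000 UMIs the sum was 8160 CPM in D0 and 6662 to 7836 CPM in grafts. The rule with all UMIs therefore took in D0 cells with lower levels of the 11 genes, and the order of D0 and grafts turned with it.

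Genes of G2 and M phase outweighed those of S phase in cycling cells. The S phase list took 22.0% of the UMIs of both lists in D0, 20.1% and 24.4% at 2 MPT and 23.3% and 19.0% at 4 MPT, against 41.5% to 50.7% in the other human cells. With members chosen at 1000 UMIs it was 11.02% in D0, 15.9% and 19.0% at 2 MPT and 15.4% and 13.5% at 4 MPT, so D0 lay within the range of the grafts by the first choice and below each graft by the second. PCNA, the clamp that holds DNA polymerase, stood at 115 CPM in D0, 133 and 175 at 2 MPT and 139 and 172 at 4 MPT. HMGB2 stood at 945 CPM in D0, 1431 and 1901 at 2 MPT and 1623 and 2088 at 4 MPT. Since 8 of the 11 genes of the rule belong to G2 or M phase, this balance is partly set by the rule.

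What else the cycling cells expressed differed by library. Marker lists were scored in cycling cells thinned to 1000 UMIs, and a cell counted for a list when 2 or more of its genes were detected. These cells had met the rule with all UMIs, while 415 cells of D0 met it at 1000 UMIs. The D0 shares are thus not matched to grafts in the choice of cells. Between the 2 choices the D0 sum went from 1457 to 775 CPM for the neuron list. It went from 2878 to 986 CPM for choroid plexus and from 8778 to 10270 CPM for radial glia. Radial glia markers (9 genes, among them SOX2, PAX6, VIM and HES5) were co-detected in 81.2% of D0 cells, 50.5% and 79.0% at 2 MPT and 59.3% and 63.3% at 4 MPT, against 15.9% to 47.6% of other human cells. In neuron barcodes the share was 9.70% to 20.9%. In HIP_2MPT the interval of the cycling share ran from 44.7% to 56.2%, so whether more than 50% of its cycling cells carried these markers is not resolved.

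Intermediate progenitor markers (6 genes, among them EOMES, the factor that defines these cells, and NEUROG2, which starts excitatory neuron formation) were co-detected in 9.11% of cycling cells of D0, 25.6% and 29.0% at 2 MPT and 6.17% and 4.48% at 4 MPT. Both 2 MPT libraries lay above D0 and above both 4 MPT libraries. The CPM sum of an intermediate progenitor list of 7 genes is another measure. In the other human cells it was 490 CPM in D0, 1283 and 1380 at 2 MPT and 773 and 929 at 4 MPT. In cycling cells it was 719 CPM in D0, 1783 and 2109 at 2 MPT and 1095 and 1322 at 4 MPT. Both sums were highest at 2 MPT. At 4 MPT the sum in cycling cells lay above D0, while the share lay below it. In 20.6% of the cycling cells of PFC_2MPT and 9.18% of those of HIP_2MPT these markers stood beside radial glia markers. Neuron markers were found in 37.0% of the cycling cells of HIP_2MPT, and in 19.0%, 11.5%, 7.05% and 15.9% of those of D0, PFC_2MPT, HIP_4MPT and PFC_4MPT. The part of free RNA in the intermediate progenitor and neuron shares was not tested.

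Inhibitory lineage markers (DLX1, DLX2, DLX5 and DLX6, homeobox factors of ventral progenitors, and GAD1 and GAD2, the enzymes that make GABA) were co-detected in 0.808% of cycling cells of D0 and 0.328% and 1.98% at 2 MPT, but in 16.3% (95% interval 13.0 to 20.02) and 35.0% (30.8 to 39.4) at 4 MPT. Other human cells of the 4 MPT libraries reached 2.42% in HIP and 8.82% in PFC. Glial progenitor markers (4 genes, among them OLIG1, OLIG2 and EGFR) were co-detected in 0 of 1361 cycling cells in D0, which allows a share of up to 0.220% with 2 detected markers at 1000 UMIs (3 counts of the total), in 1.64% and 3.37% at 2 MPT, and in 22.9% (19.1 to 27.1) and 10.6% (8.01 to 13.7) at 4 MPT. Other human cells reached 12.05% and 6.31% at 4 MPT. In neuron barcodes, with a median of 2541 and 1868 UMIs before thinning against 5152 and 3360 in cycling cells, the glial share at 4 MPT was 1 of 605 (0.165%) and 3 of 487 (0.616%), and the inhibitory share 2 of 605 (0.331%) and 16 of 487 (3.29%). The inhibitory share was thus highest in the cortex and the glial share highest in the hippocampus, each in 1 library. Both sets met in the same cell in 3 of 454 and 4 of 491 cells at 4 MPT.

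Markers of other cell types were rare. Astrocyte markers (7 genes) were co-detected in 3 of 491 cycling cells of PFC_4MPT (0.611%) and in none of the 1361, 305, 504 and 454 cells of the other libraries, and in 1 of 487 neuron barcodes of PFC_4MPT (0.205%, interval up to 1.14%), so that share is read as background. Oligodendrocyte progenitor markers (5 genes) were found in 1.32% of cycling cells in HIP_4MPT and 1.02% in PFC_4MPT, in 0.843% and 1.16% of the other human cells and in 0 of 605 and 0 of 487 neuron barcodes, with SOX10 at 2.83 and 0.570 CPM in cycling cells. Choroid plexus markers were co-detected in 8 of 1361 D0 cells (0.588%). TTR, the thyroid hormone carrier made by choroid plexus, stood at 2856 CPM in cycling cells of D0 against 0.570 to 22.0 CPM in grafts, and the choroid plexus list summed to 8785 CPM in the other cells of D0, so its level moved with that of the whole library. From 8.93% to 17.4% of the cycling cells of each library had no list of 6 with 2 detected markers.

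**Figure D2:**
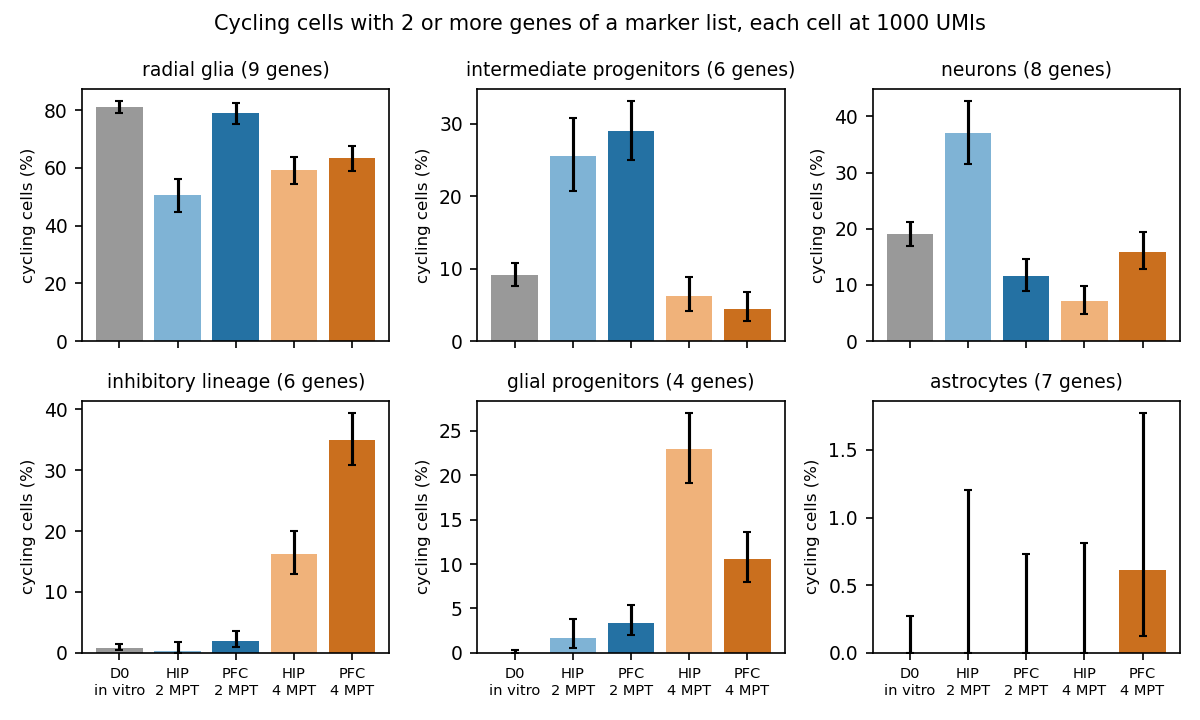
Share (%) of cycling cells with 2 or more detected genes of 6 marker lists, by library, with 95% Clopper-Pearson intervals. Cells were chosen by the rule with all UMIs and then thinned to 1000 UMIs. Each panel has its own vertical axis. Intermediate progenitor markers peaked at 2 MPT (25.6% and 29.0%), and inhibitory (16.3% and 35.0%) and glial progenitor markers (22.9% and 10.6%) at 4 MPT.

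To ask which genes changed in dividing cells between the graft stages, UMIs were summed over the cycling cells of each library and tested with the quasi-likelihood test of edgeR, with p-values adjusted over all genes by the Benjamini-Hochberg method. At an adjusted p under 0.05, 112 of 11941 genes changed between 2 and 4 MPT (0.938%), 82 upward (0.687%) and 30 downward (0.251%). The median log2 fold change of all genes was 0.00. Inhibitory lineage genes were called higher, though they passed the filter on low counts through the 4 MPT libraries. Of the glial progenitor genes 3 of 6 rose, while 4 of 7 intermediate progenitor and 2 of 9 dorsal genes fell. No gene of the cell cycle lists passed the test. On GRCh38, with GENCODE gene bounds, the genes described most fully lie at chr7:97020396-97024950 (DLX5), chr10:26216665-26304558 (GAD2), chr21:33070141-33072413 (OLIG1), chr7:55019017-55211628 (EGFR), chr3:27715949-27722711 (EOMES) and chr4:112513516-112516180 (NEUROG2), and 10x 3′ counts sum over each gene.

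None of the 38 S phase genes, 47 G2 and M phase genes, 12 tested G1 cyclins and cyclin-dependent kinase inhibitors, 10 cell cycle transcription factors and 12 primary microcephaly genes changed between 2 and 4 MPT at that threshold. The median log2 fold change was −0.05 for S phase and 0.09 for G2 and M phase, with single genes from −0.32 (DTL) to 0.47 (CDT1) and from −0.40 (HJURP) to 0.83 (CDCA3, SE 0.28, adjusted p = 0.330). E2F1, an activator of S phase genes, stood at 55.0 and 60.8 CPM at 2 MPT and 51.3 and 37.0 CPM at 4 MPT. ASPM, the most often mutated primary microcephaly gene, stood at 136 and 176 and then 179 and 147 CPM. The stages overlapped for ASPM, and for E2F1 both 4 MPT libraries were lower without passing the test. In simulated data of the same libraries the test found 80 of 100 genes changed 4-fold and 20 of 100 changed 2-fold, with 11 false calls beside them. Most changes of 2-fold would thus be missed with these libraries.

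The cyclin D partners that carry cells from G1 to S phase showed a similar picture. CCND2, the cyclin D2 of cortical progenitors, stood at 409 and 539 CPM at 2 MPT and 528 and 467 CPM at 4 MPT (log2 fold change 0.20, SE 0.25). CDK6, its kinase partner, stood at 61.4, 107, 187 and 172 CPM, and CDKN2C, an inhibitor of that kinase, at 82.4, 93.6, 151 and 155 CPM. For both the stages did not overlap, but their log2 fold changes of 1.18 (SE 0.30, adjusted p = 0.105) and 0.92 (SE 0.26, adjusted p = 0.195) did not pass the edgeR test. Among all genes, 10.7% were higher and 27.6% lower at 4 MPT with no overlap of the stages.

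Inhibitory lineage genes called between 2 and 4 MPT were all higher at 4 MPT. Each held 0 to 2 UMIs in HIP_2MPT, so they passed the filter on low counts through the 4 MPT libraries, where they are high. No count of rising genes is therefore read for this list, and levels are given. DLX5 stood at 3.23 and 5.62 CPM at 2 MPT and 81.2 and 285 CPM at 4 MPT, a log2 fold change of 5.33 (SE 0.64, edgeR adjusted p = 0.00212). GAD2 stood at 3.23 and 42.6 CPM at 2 MPT and 230 and 702 CPM at 4 MPT (4.21, SE 0.65, adjusted p = 0.00578). GSX2, a factor that sets ventral progenitor identity, was at 0 UMIs in HIP_2MPT and at 7.02 CPM in PFC_2MPT, and stood at 61.4 and 75.2 CPM at 4 MPT (3.86, SE 0.50). The 4 MPT libraries were higher than both 2 MPT libraries for each of these, and for DLX5 and GAD2 PFC_4MPT was the highest. DLX1 rose by 4.40, DLX2 by 4.11, DLX6 by 3.72, GAD1 by 3.76 and SP9, a factor of striatal and interneuron precursors, by 4.88 on the log2 scale. With graft site as a block GSX2 (edgeR adjusted p = 0.0569) and DLX6 (0.0687) lost their calls and the other 6 kept theirs. With DESeq2, DLX1 (adjusted p = 0.785), GAD2 (0.287), DLX2 (0.148) and GSX2 (0.213) lost their calls. Their log2 fold changes in DESeq2 were 4.85, 4.49, 4.45 and 4.25. The noncoding gene DLX6-AS1, which overlaps DLX6 on the other strand, stood at 0, 6.08, 88.4 and 155 CPM (4.89, SE 0.54).

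Of 6 glial progenitor genes, 3 rose. Of these OLIG1, with 3 UMIs in HIP_2MPT, passed the filter on low counts through the 4 MPT libraries. OLIG1, a factor of oligodendrocyte lineage progenitors, stood at 4.85 and 35.1 CPM at 2 MPT and 522 and 222 CPM at 4 MPT (log2 fold change 4.06, SE 0.53, edgeR adjusted p = 0.00212). EGFR, the receptor for epidermal growth factor found on progenitors that turn to glia, stood at 29.1, 55.2, 234 and 117 CPM (2.09, SE 0.37, adjusted p = 0.0127). OLIG2 stood at 6.47, 9.36, 70.3 and 38.2 CPM (2.80, SE 0.41). For each of these the stages did not overlap and HIP_4MPT was the highest. None of the 3 kept its call with graft site as a block (adjusted p = 0.0998 for OLIG1, 0.190 for EGFR and 0.0789 for OLIG2). In the other human cells at 4 MPT OLIG1 stood at 432 and 218 CPM and OLIG2 at 73.8 and 48.5 CPM, near or above their levels in cycling cells.

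Of 7 oligodendrocyte progenitor genes 3 passed the filter on low counts, PDGFRA, PCDH15 and LHFPL3. Their log2 fold changes were 3.32, 3.74 and 2.52, and each stood under 50 CPM in each library. At 2 MPT PDGFRA held 0 and 11 UMIs and PCDH15 1 and 3. Both thus passed the filter through the 4 MPT libraries, where they are high, so no count of rising genes is read for this list. The whole list summed to 88.8 and 99.7 CPM in cycling cells at 4 MPT, 94.2 and 101.1 CPM in other human cells and 153 and 178 CPM in SOX2-positive non-cycling cells, so it was not higher in cycling cells than in the rest of these libraries. Of 11 astrocyte genes 7 were tested. The lipid carrier APOE (0, 5.62, 114 and 59.8 CPM, 4.50, SE 0.53), SPARCL1 (2.84) and the water channel AQP4 (4.06) were called higher at 4 MPT. APOE and AQP4, the latter at 0 and 2.81 CPM at 2 MPT, passed the filter through the 4 MPT libraries. No count of rising genes is therefore read for this list either. Over the 11 astrocyte genes the sum was 624 and 351 CPM in cycling cells at 4 MPT against 2112 and 1083 CPM in other human cells of the same libraries. The part of free RNA in the astrocyte genes was not tested. JAG1, a Notch ligand, rose by 2.08 and the brain metallothionein MT3 by 2.26. None of these 8 genes passed the edgeR test with graft site as a block, with adjusted p-values of 0.0687 (PDGFRA), 0.0894 (PCDH15), 0.107 (LHFPL3), 0.0669 (APOE), 0.0969 (SPARCL1), 0.232 (AQP4), 0.161 (JAG1) and 0.0687 (MT3).

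Of 7 intermediate progenitor genes 4 fell, with a median log2 fold change of −1.74 over the list. EOMES stood at 221 and 206 CPM at 2 MPT and 73.1 and 42.7 CPM at 4 MPT (−1.74, SE 0.29, edgeR adjusted p = 0.00960). NEUROG2 stood at 90.5, 134, 14.5 and 17.7 CPM (−2.70, SE 0.33, adjusted p = 0.00212). PPP1R17, a phosphatase inhibitor, stood at 149, 115, 27.5 and 5.13 CPM (−2.81, SE 0.47, adjusted p = 0.00960), and NHLH1 fell by 3.61 on the log2 scale. NHLH1 held 3 and 6 UMIs at 4 MPT, so it passed the filter on low counts through 2 MPT. Both 4 MPT libraries lay below both 2 MPT libraries for each. HES6, the member with the most UMIs, stood at 1081, 1294, 667 and 902 CPM (−0.45, SE 0.26), and INSM1 at 160, 230, 277 and 340 CPM (0.78, SE 0.28), neither past the threshold. With graft site as a block NEUROG2 kept its call (adjusted p = 0.0373), and EOMES (0.0846), PPP1R17 (0.0687) and NHLH1 (0.176) did not.

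Among 9 genes that pattern the dorsal telencephalon, EMX1 (85.7, 45.4, 12.9 and 14.2 CPM, log2 fold change −2.06, SE 0.37, edgeR adjusted p = 0.0153) and LHX2 (349, 334, 136 and 96.3 CPM, −1.42, SE 0.26, adjusted p = 0.0192) fell. FEZF2 stood at 55.0, 36.5, 16.2 and 6.27 CPM (−1.79, SE 0.41, adjusted p = 0.0621). The 2 dorsal genes that fell are thus part of a list in which 7 did not pass the test. HMGA2, a chromatin protein of young neural stem cells, fell from 27.5 and 29.5 to 5.25 and 3.42 CPM (−2.55, SE 0.42). EMX1 (adjusted p = 0.137), LHX2 (0.116) and HMGA2 (0.116) lost their calls in the edgeR fit with graft site as a block. Other genes with large decreases were CLMP (−2.59), SSTR2 (−2.30), TENM4 (−2.25), NRN1 (−2.17), LINC00486 (−2.06), IGFBPL1 (−2.01) and LINC01876 (−1.97). C11orf96 rose by 3.62 on the log2 scale. LINC00486 gained UMIs on the dual reference, to 237% of those on the human reference, so its level is uncertain.

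Of 12 radial glia genes LHX2 alone was called between the graft stages, and the median log2 fold change of the list was −0.50. SOX2, the stem cell factor, stood at 283 and 686 CPM at 2 MPT and 1027 and 756 CPM at 4 MPT (log2 fold change 1.00, SE 0.35, edgeR adjusted p = 0.377). HES5, a Notch target, stood at 196, 3613, 1243 and 2697 CPM and was low in HIP_2MPT alone. VIM, an intermediate filament, stood at 750, 1633, 830 and 463 CPM. No gene of the neuron list (10 genes), of 7 tested outer radial glia genes, or of the heat shock and immediate early lists (8 genes each) was called. None was called among 7 tested glycolysis and hypoxia genes or 7 endoplasmic reticulum stress genes, 1 of 10 Notch pathway genes (JAG1) and 1 of 6 metallothioneins (MT3) rose, 2 of 6 growth factor receptors (EGFR and PDGFRA) rose, and TTR, the choroid plexus gene tested, fell by 3.69 on the log2 scale. TTR held 6 and 47 UMIs at 2 MPT and 4 and 1 at 4 MPT, so it passed the filter on low counts through 2 MPT, where it is high. It was 1 of 7 genes of its list, and lost its call with graft site as a block (edgeR adjusted p = 0.190). No fall of choroid plexus genes is read from it.

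**Figure D3:**
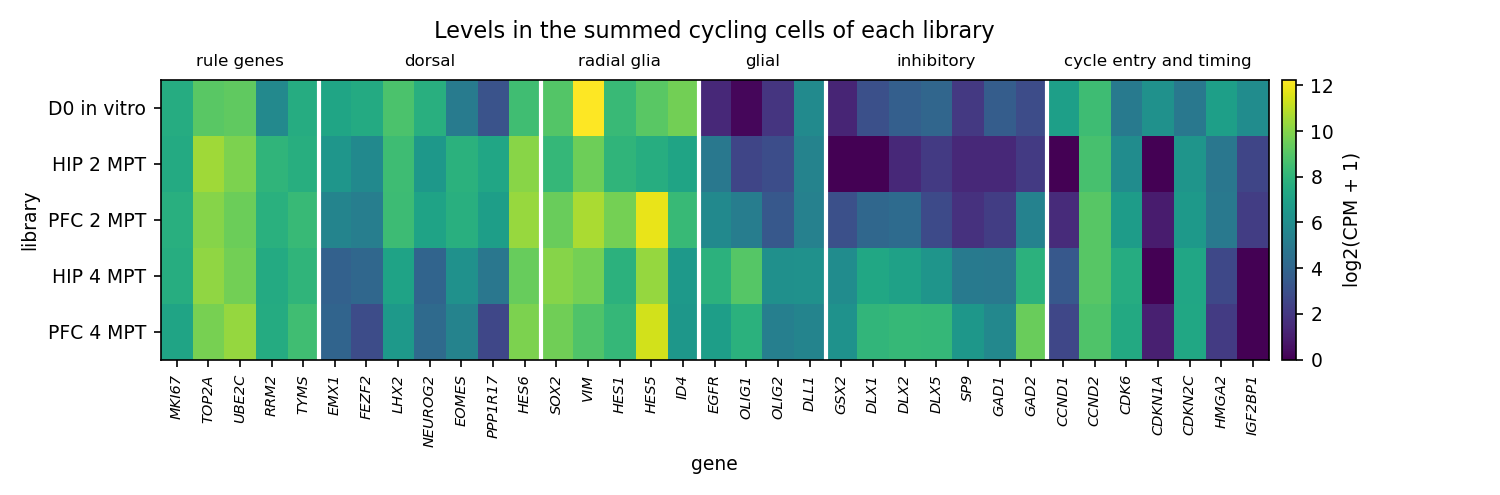
Level, as log2(CPM + 1), of selected genes in the summed cycling cells of each library. Columns are genes in 6 groups and rows are libraries. EOMES and PPP1R17 are highest at 2 MPT, and OLIG1, OLIG2, EGFR and the inhibitory genes are highest at 4 MPT.

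**Figure D4:**
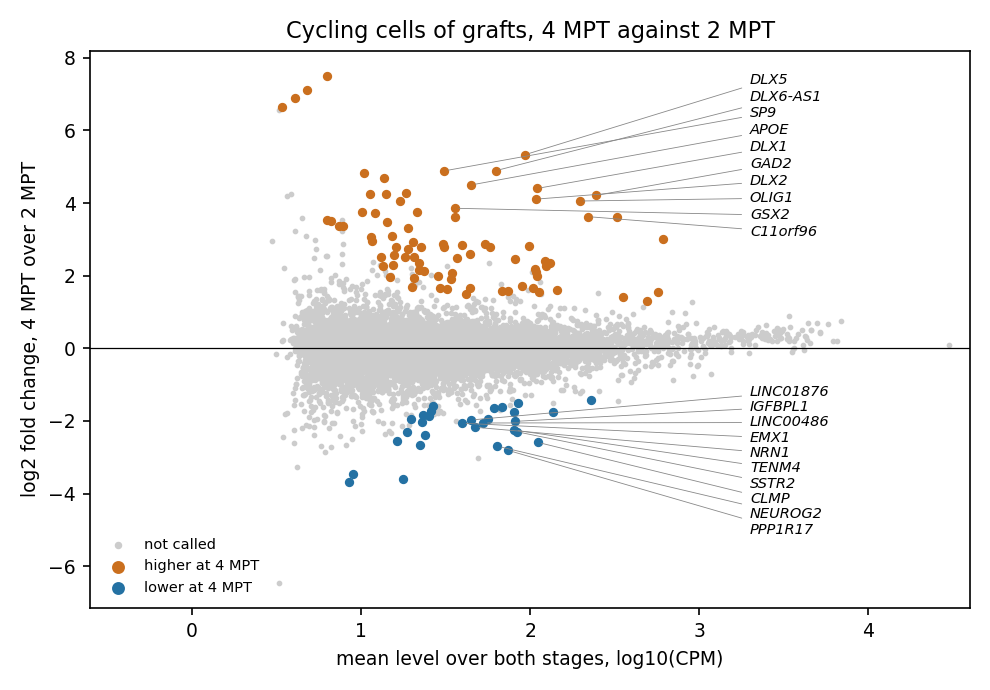
Log2 fold change from 2 to 4 MPT against mean level, as log10(CPM), for 11941 genes in cycling cells of grafts, each point being 1 gene. Genes called by edgeR are orange (82, higher at 4 MPT) or blue (30, lower), and the 10 named genes in each direction are labelled.

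The calls for these changes depended on the fit. All 36 genes called by the naming rule or the lists kept their direction under each alternative run for them. They were chosen as called genes, and those of the naming rule also for no overlap between the stages. Their direction was thus largely set by that choice and is not read as support. With the graft site as a block 14 genes were called, all among the 112, and of the 36 genes 10 kept their call and 26 lost it. The 10 were DLX5, DLX6-AS1, SP9, DLX1, GAD2, DLX2, GAD1, C11orf96, NEUROG2 and SSTR2, so no glial progenitor, later glial or dorsal gene was among them. With the block the log2 fold change was 4.03 for OLIG1, 2.05 for EGFR and −2.06 for EMX1, close to the values without it. With DESeq2, 84 genes were called. DESeq2 lost DLX1 (adjusted p = 0.785), GAD2 (0.287), DLX2 (0.148), OLIG1 (0.0720), GSX2 (0.213), C11orf96 (0.0803), PPP1R17 (0.274), PDGFRA (0.571) and AQP4 (0.402). Its log2 fold changes were 4.85 for DLX1, 4.49 for GAD2 and 4.30 for OLIG1. A fit without 1 library leaves a stage with a single library, so its spread comes from the other stage alone. Without 1 library the count rose, to 328 without PFC_2MPT, 247 without HIP_4MPT and 248 without PFC_4MPT.

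Whether these changes were particular to dividing cells was asked with non-dividing cells of the same libraries, defined by a SOX2 UMI and no UMI of the 11 genes (361 and 614 cells at 2 MPT, 2211 and 1728 at 4 MPT). The stage change differed between the classes for 79 of 13153 genes (0.601%), 35 with a higher change in cycling cells (0.266%) and 44 with a lower one (0.335%). No gene of the inhibitory lineage, glial progenitor, oligodendrocyte progenitor, intermediate progenitor or dorsal lists was among them. OLIG1 stood at 12.1 and 82.4 CPM in non-dividing cells at 2 MPT and 776 and 464 CPM at 4 MPT. Its change in cycling cells minus that in non-dividing cells was 0.50 (log2, SE 0.25, edgeR adjusted p = 0.635). DLX5 stood at 2.02 and 6.15 CPM against 15.1 and 137 CPM (difference 1.66, SE 0.85, adjusted p = 0.635). The glial and inhibitory genes were thus higher at 4 MPT in SOX2-positive cells outside the cycle too, and an equal change in both classes is not shown by these p-values.

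Genes whose stage change did differ had varied roles, and few calls were stable. The 79 calls became 18 with DESeq2 and 41 without HIP_2MPT, and of 34 named genes 4 were called under each alternative run, TUBA1C, LGALS1, CADM2 and HMGB2. TUBA1C, an alpha tubulin, stood at 121 and 94.1 CPM in cycling cells at 2 MPT and 206 and 212 at 4 MPT, while it stood at 141 and 68.3 and then 51.1 and 58.7 CPM in non-dividing cells (log2 difference 1.80, SE 0.21, edgeR adjusted p = 4.69e-05). The lectin LGALS1 stood at 629 and 559 and then 860 and 1259 CPM in cycling cells and at 242 and 207 and then 187 and 223 CPM in non-dividing ones (0.99, SE 0.15, adjusted p = 0.00157). SOX2-OT, the noncoding gene around SOX2, stood at 69.5 and 215 and then 1074 and 1090 CPM against 88.7 and 175 and then 478 and 644 CPM (0.87, SE 0.19, adjusted p = 0.0249). It lost its call under 4 of 11 alternatives and shares its locus with SOX2, the gene that chose the control class. For these 3 genes cycling cells ended higher than non-dividing ones at 4 MPT.

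NPY, a neuropeptide of some inhibitory neurons, stood at 0 and 11.7 and then 33.9 and 76.3 CPM in cycling cells, and at 2.02 and 7.99 and then 4.54 and 6.46 CPM in non-dividing cells (2.85, SE 0.63, edgeR adjusted p = 0.0314, lost under 5 of 11 alternatives). In the other direction, the adhesion gene CADM2 stood at 116 and 149 and then 105 and 58.7 CPM in cycling cells, against 78.6 and 156 and then 251 and 200 CPM (−1.51, SE 0.21, adjusted p = 0.000434). TTYH1, a chloride channel of neural stem cells, stood at 103 and 167 and then 61.8 and 86.6 CPM, against 381 and 544 and then 555 and 491 CPM (−1.03, SE 0.20, adjusted p = 0.0117, lost under 3 of 11). CADM2 and TTYH1 lay higher in non-dividing cells at 4 MPT. Of the cell cycle lists 3 S phase and 5 G2 and M phase genes were called with a higher change in cycling cells. For those the control class is defined by the absence of the 11 genes, so nothing is read from them.

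**Figure D5:**
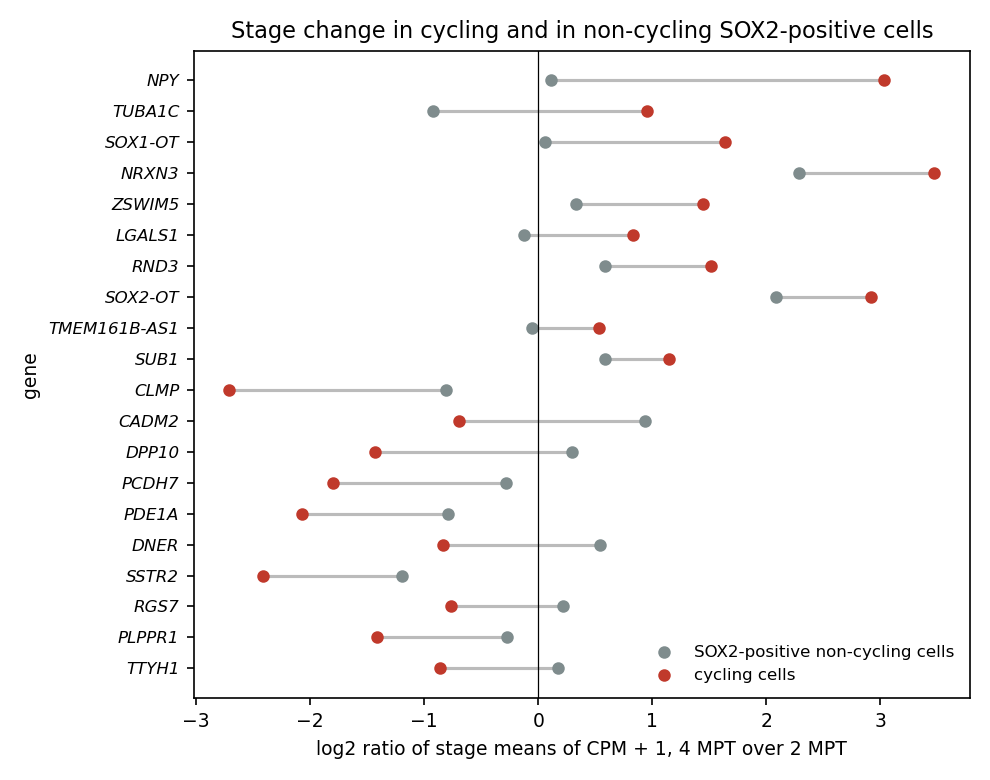
Log2 ratio of the stage means of CPM + 1, 4 MPT over 2 MPT, for 20 genes called by edgeR for a stage change that differed between cycling cells (red) and SOX2-positive non-cycling cells (grey). NPY, TUBA1C and SOX1-OT show the widest gaps upward, and CLMP, CADM2 and DPP10 lie furthest below the non-cycling cells.

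Graft site was tested over both stages, PFC against HIP with stage in the fit. By edgeR 0 of 11941 genes were called (0%), with 251 at an unadjusted p under 0.05, and DESeq2 called 1. MT1E, a metallothionein that binds metal ions, had the lowest p. It stood at 1.62 and 41.2 CPM at 2 MPT and 2.83 and 68.4 CPM at 4 MPT (log2 fold change 4.65, SE 0.46, adjusted p = 0.113). In the cortex GAD2 was 2.09 (SE 0.39) and DLX5 1.79 (SE 0.37) higher on the log2 scale, and HES5 2.67 (SE 0.66), all with an adjusted p of 1.00. OLIG1 differed by −0.09 (SE 0.68). With 1 residual degree of freedom the test found 67 of 100 simulated 4-fold changes and 6 of 100 2-fold changes, so most 2-fold differences between sites would be missed.

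Set against D0, cycling cells of grafts differed in many genes, 4473 of 13484 at 2 MPT (33.2%, 19.7% higher and 13.5% lower) and 4969 at 4 MPT (36.9%, 21.4% higher and 15.5% lower). Both comparisons use the same D0 library, whose spread was taken from the grafts. DESeq2 called 2795 and 3017 genes, and without HIP_4MPT edgeR called 3110 at 4 MPT. At such shares a single call says little about a list, so levels are given first.

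Timing genes of the young neuroepithelium were lower in grafts. LIN28B, HMGA2, IGF2BP1 and IGF2BP2, which mark early neural stem cells, were called lower in both comparisons. The median log2 fold change over the list of 5 genes was −3.51 at 2 MPT and −4.87 at 4 MPT. With members chosen at 1000 UMIs it was −2.70 and −4.70. LIN28B, at 11.8 CPM in D0 and 0 to 3 UMIs in each graft library, passed the filter on low counts through D0. No count of falling genes is therefore read for this list. HMGA2 stood at 118 CPM in D0, 27.5 and 29.5 at 2 MPT and 5.25 and 3.42 at 4 MPT. IGF2BP1, an RNA-binding protein, stood at 61.8, 4.85 and 3.74 CPM and then at 0 UMIs in both 4 MPT libraries, at least 87.1-fold lower than D0 against a floor of 3 counts over the stage. The fifth gene, IGF2BP3, stood at 70.4, 121, 96.4, 79.9 and 60.4 CPM and did not follow.

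Glycolysis and hypoxia genes were also lower. Of 9 tested, 8 fell in each comparison, with a median log2 fold change of −3.59 at 2 MPT and −2.30 at 4 MPT. LDHA, lactate dehydrogenase, stood at 285 CPM in D0 and at 21.0 and 33.2 CPM at 2 MPT and 42.8 and 26.2 CPM at 4 MPT. SLC2A1, the main glucose transporter, stood at 155 CPM and 8.08, 4.68, 5.25 and 10.3 CPM, and VEGFA, which attracts vessels, at 156 CPM and 12.9, 5.62, 4.85 and 19.4 CPM. In the other human cells LDHA stood at 267 CPM in D0 and 12.3 to 15.5 CPM in grafts, and whether the gap differed from that in cycling cells was not tested.

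Cell cycle entry genes went both ways against D0. CCND1, cyclin D1, stood at 119 CPM in D0 and at 0, 1.87, 9.29 and 5.13 CPM in grafts, a log2 fold change of −6.65 at 2 MPT (SE 0.55) and −4.15 at 4 MPT (SE 0.40). CDKN1A, the p53-induced inhibitor p21, stood at 72.3 CPM in D0 and at 0, 0.936, 0 and 1.14 CPM in grafts. By pooled counts it was 99.6-fold lower at 2 MPT (27.5 to 823) and 153-fold lower at 4 MPT (42.3 to 1264). These ranges cover counting error only, and the fitted log2 fold changes were −6.89 and −7.33. For CCND1 both 4 MPT libraries lay above both 2 MPT libraries, and for CDKN1A each stage held 2 UMIs in all. Over the 14 tested G1 cyclins and inhibitors the median log2 fold change was 0.24 at 2 MPT and 0.36 at 4 MPT. Over all genes it was 0.025 and 0.024, and single genes of the list went in both directions. CDK6 rose by 1.22 at 2 MPT and 2.41 at 4 MPT, CDKN2C by 1.34 and 2.27, and RB1, the brake on E2F, by 1.81 and 1.91 on the log2 scale.

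For the S phase and the G2 and M phase lists the comparison with D0 depended on how members were chosen. With all UMIs 8 of 38 S phase genes were higher and 1 lower at 2 MPT, 10 and 1 at 4 MPT, and in the G2 and M phase list 6 of 47 were higher and 1 lower, then 7 and 0. The median log2 fold changes of the S phase list were 0.40 and 0.38, and those of the G2 and M phase list 0.25 and 0.44. With members chosen at 1000 UMIs they became 0.12 and −0.049 for S phase and −0.67 and −0.41 for G2 and M phase, and no direction is read from either list. BRIP1, a helicase of DNA repair, stood at 9.92 CPM in D0 and 80.9 to 121 CPM in grafts.

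Lineage genes separated the stages from D0 in different ways. Intermediate progenitor genes were higher at 2 MPT in 5 of 7, EOMES by 2.39, PPP1R17 by 3.75, INSM1 by 2.04, NEUROG1 by 2.12 and HES6 by 1.46, while NEUROG2 (−1.17) and NHLH1 (−1.29) were lower. Inhibitory genes were lower at 2 MPT in 3 of 9, among them DLX5 and GAD1. At 4 MPT 8 of 9 were called higher, with DLX5 at 15.6 CPM in D0 and 81.2 and 285 CPM at 4 MPT. GSX2, at 1.41 CPM in D0, passed the filter on low counts through grafts, so that count is not read. The median log2 fold change of the inhibitory list at 2 MPT was −0.81, and 0.068 with members chosen at 1000 UMIs, so no direction is read for that stage, while at 4 MPT it was 3.98 and 4.43. Glial progenitor genes were higher in 4 of 6 at both stages, with EGFR at 1.64 CPM in D0 and 29.1 to 234 CPM in grafts. OLIG1, with 4 UMIs in D0, passed the filter on low counts through grafts. Dorsal genes were lower in 3 of 9 at 2 MPT and in 5 of 9 at 4 MPT, with FEZF2 at 178 CPM in D0 and 6.27 to 55.0 CPM in grafts. NR2F1, a factor graded across the cortex, was higher at both stages (log2 1.30 and 1.29).

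Of the stress lists 2 were higher in grafts. Immediate early genes, which dissociation can induce, were higher in 6 of 8 at 2 MPT and 4 of 8 at 4 MPT. FOS stood at 484 CPM in D0 and 1484 to 2555 CPM in grafts. Metallothioneins summed to 43.6 CPM in D0 and 344 to 740 CPM in grafts, with MT2A at 19.7 CPM and 229 to 562 CPM. In D0 MT1G and MT1M held 0 UMIs and MT1E 1, so these passed the filter on low counts through grafts. MT1G held 0 UMIs in HIP_4MPT and 60 in PFC_4MPT. No count of rising genes is therefore read for the metallothioneins. Heat shock genes had 1 higher and 1 lower of 8 at 2 MPT and 1 and 0 at 4 MPT (median log2 fold changes −0.037 and 0.011), and endoplasmic reticulum stress genes had 0 higher and 1 lower of 8 at 2 MPT and 0 and 4 at 4 MPT (medians −0.45 and −0.97). The part of these lists in the other differences from D0 was not tested. Some genes were at 0 UMIs in D0, which was counted with another Cell Ranger release and annotation. Whether these 0 counts reflect expression or counting was not tested. GH1, growth hormone, was at 0 UMIs in D0 and 619 to 1374 CPM in grafts (at least 7542-fold higher at 2 MPT), TOMM6 at 0 and 120 to 148 CPM (at least 1208-fold), and SOX2-OT at 0 and 69.5 to 1090 CPM. Of the genes called higher at 2 MPT, 286 had 0 UMIs in D0 cycling cells, and 273 of these had 3 or fewer in all other D0 cells. At 4 MPT these numbers were 295 and 281. Of the genes called lower, 76 at 2 MPT and 55 at 4 MPT had 0 UMIs in the cycling cells of that stage's grafts.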

How the data were processed

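RNA was captured with 10x Genomics 3′ v3 chemistry. The deposited UMI counts per gene and barcode were made by the authors with Cell Ranger (3.1.0 for D0 and 5.0.0 for grafts, per the file headers; 3.1 in the submitters' processing notes) on GRCh38, and for grafts also on a human and mouse dual reference, without normalization. Human cells had over 500 UMIs, over 500 genes, a mitochondrial share under 0.15 and, in grafts, over 0.8 human UMIs.

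UMIs were summed per library and tested with edgeR 4.0.16 in R 4.3.3 (filterByExpr, TMM, quasi-likelihood test, adjusted p under 0.05 by Benjamini-Hochberg), with DESeq2 1.42.0 as an alternative. Comparisons with D0 used 1 model of 5 libraries over genes present in both annotations. Recovery was tested on simulated data in which 200 genes were changed. Thinning, shares and figures used Python 3.11.15. Named genes were those of 25 lists, with called members and the most abundant ones, and in each direction the 10 called genes of largest log2 fold change with no overlap between groups and a mean of 50 CPM or more in 1 group. The members, lists and tests were chosen with earlier results of these data known. Leaving out libraries, stricter filters, other thresholds and no filter on low counts were alternatives. A few genes of the lists are counted but not reported here by name.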

Additional observations from a re-analysis of the deposited data

Results flagged for a closer look

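The stage change from 2 to 4 MPT differed between cycling and SOX2-positive non-cycling cells for 79 genes by edgeR's interaction test, with the difference given here as log2 (cycling minus non-cycling). Among the named genes it was higher in cycling cells for NPY (2.85), TUBA1C (1.80), SOX1-OT (1.61), NRXN3 (1.30), ZSWIM5 (1.06), LGALS1 (0.99), RND3 (0.93), SOX2-OT (0.87), TMEM161B-AS1 (0.63) and SUB1 (0.62). It was lower for CLMP (−1.73), CADM2 (−1.51), DPP10 (−1.47), PCDH7 (−1.39), PDE1A (−1.22), DNER (−1.17), SSTR2 (−1.09), RGS7 (−1.07), PLPPR1 (−1.04) and TTYH1 (−1.03). Among the lists, the astrocyte gene CLU (−1.13), the radial glia genes ID4 (−0.97) and HES5 (−0.83) and the metallothioneins MT1E (−3.79), MT1X (−1.62) and MT2A (−0.96) had a lower change in cycling cells. The cell cycle genes CDT1 (2.15), DTL (1.82), CCNB2 (1.56), GINS2 (1.35), HMGB2 (1.05), PTTG1 (0.96), CKS2 (0.92) and UBE2S (0.59) had a higher one, in a contrast whose control class was chosen for lacking cell cycle genes.

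Barcodes with RNA of both species, which no comparison used, held cells that met the rule, in 2.51% (HIP) and 7.02% (PFC) of those barcodes at 2 MPT and 6.46% (HIP) and 1.69% (PFC) at 4 MPT. Mixed barcodes held a median of 796 to 2563 human UMIs and host barcodes 54 to 241, so the shares of the 2 kinds cannot be compared, and whether the mixed ones were doublets was not tested.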

How the results depend on the processing

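The count of 112 genes called between 2 and 4 MPT became 304 with no filter on low counts, 84 with DESeq2 and 159 to 328 without 1 library. The fit with graft site as the replicate block gave 14 calls. No replicate number pairs these libraries, so the block stands for the site alone. A fit without 1 graft library leaves that stage with a single library, so its spread comes from the other libraries. On the human genes of the dual reference, an alternative chosen after seeing the data, 92, 0 and 61 genes were called for stage, site and the difference between classes. Against D0, DESeq2 called 2795 genes at 2 MPT and 3017 at 4 MPT, and leaving out 1 library gave 3191 to 4880 and 3110 (without HIP_4MPT) to 5318. The 0 genes between sites became 1 with DESeq2, 1 with 5 or more of the 11 genes, 19 with no filter and 7 with members chosen at 1000 UMIs, and leaving out a library left no residual degree of freedom there. The 79 genes of the class comparison became 18 with DESeq2, 131 with no filter, 46 with members chosen at 1000 UMIs and 41 to 69 without 1 library (41 without HIP_2MPT, 49 without HIP_4MPT).

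The share of cycling cells in D0, HIP_2MPT, PFC_2MPT, HIP_4MPT and PFC_4MPT was 8.99%, 3.09%, 5.26%, 3.59% and 3.97% at 1000 UMIs, 17.9%, 1.87%, 6.33%, 5.32% and 4.39% with 5 or more genes, and 41.0%, 5.45%, 10.8%, 8.45% and 7.75% with 2 or more. At 2000 UMIs it was 13.1% in D0, 16.0% in HIP_2MPT, 9.73% in PFC_2MPT and 11.3% in PFC_4MPT. In PFC_4MPT it was 7.02% with a mitochondrial share under 0.1 and 7.39% with a human share over 0.9.

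With members chosen at 1000 UMIs, GTSE1 (−0.12) and CIT (−0.084) at 2 MPT and NDC80 (−0.037), CENPA (−0.15) and CIT (−0.061) at 4 MPT reversed against D0, as did PDGFRA (−5.13) and AQP4 (−1.78) at 2 MPT without PFC_2MPT (2.90 and 5.40 without HIP_2MPT), all as log2 fold changes. The cause was not tested. Of the named genes, 6 of 36 between stages and 4 of 34 in the class comparison were called under each alternative run. Depth limits the shares, which moved with the number of UMIs kept per cell.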
